A study of Bos taurus with 12 samples.

Results

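The antioxidant enzyme genes described here are 10: the glutathione peroxidases GPX1 and GPX4, thioredoxin TXN and its reductase TXNRD1, catalase CAT, the superoxide dismutases SOD1 and SOD2, the peroxiredoxins PRDX1 and PRDX2, and the omega-class glutathione transferase GSTO1. Members were all probe sets of a bovine expression array annotated to 1 of these symbols and to no other gene, which gave 11 of 24016 probe sets, since GPX1 has 2 and each other gene 1. They stand for 10 of 9155 named genes on the array. RNA was measured in bovine conceptuses of 3 kinds and in cultured cells: SCNT conceptuses (cloned by somatic cell nuclear transfer), IVP conceptuses (fertilization and culture in vitro), AI conceptuses (conceived in vivo by artificial insemination) and FB, the fibroblasts that gave the nuclei for cloning. Blastocysts of the 3 conceptus groups were transferred to synchronized cows on day 7 and recovered on day 16 at comparable length, when the conceptus is an elongating filament, mostly trophoblast, that has not yet attached to the uterus. Each group had 3 arrays. The labels name no cattle breed, no sex, and neither the number of donor cell lines nor whether an array holds 1 conceptus or a pool, and the p-values here rest on the spread of the 3 arrays of each group, part of which may be technical.

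Aerobic cells make superoxide as a by-product of respiration. Superoxide dismutases turn it into hydrogen peroxide, SOD1 mainly in the cytosol and SOD2 in the mitochondrial matrix. Catalase in peroxisomes, glutathione peroxidases and peroxiredoxins then break hydrogen peroxide down, the peroxidases at the cost of glutathione and the peroxiredoxins at the cost of thioredoxin, which thioredoxin reductase restores with electrons from NADPH. GPX1, GPX4 and TXNRD1 are selenoproteins, with selenocysteine at the active site, and TXNRD1 is among the well-known targets of the oxidative stress factor NRF2. Embryos in culture usually meet more oxygen than embryos in the oviduct, and embryo media are often supplemented with antioxidants for that reason.

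The values are log2 signals as the authors deposited them, with a lower limit near 2.42, and a probe set entered the tests if it lay above log2 4 on at least 3 arrays. A gene was called higher or lower at an adjusted p under 0.05 (limma, Benjamini-Hochberg over all probe sets of the comparison). Of the 11 member probe sets, 10 passed this filter, 1 for each gene. The second GPX1 probe set stayed between 2.42 and 2.52 on all 12 arrays, at the lower limit of the signal, and gives no measurement. The arrays carried the markers of their labels in part: 9 of 11 trophoblast markers lay above log2 4 on every conceptus array and 0 on every FB array, while 10 of 12 fibroblast markers did so on every FB array and 2 on every conceptus array. KRT8 and ELF5 of the trophoblast list stayed below log2 4 in all conceptuses, as did POU5F1 and SOX2 of the epiblast list, and THY1 and PDGFRB of the fibroblast list did so in FB. The 2 fibroblast markers above log2 4 on every conceptus array were FN1 and THY1. THY1 went against the labels, at 4.06 to 5.32 in conceptuses and 2.78 to 3.28 in FB. So did TTR, a marker of the hypoblast list, at 2.43 in conceptuses and 6.57 to 6.89 in FB. The tissue label of the FB arrays names an embryo, while their description names donor cells, and most trophoblast and fibroblast markers go with the description. On AI 2, IVP 2 and IVP 3 the bacterial spike-in controls were brighter, at 7.54 to 7.58 against 6.57 to 7.00 on the other 6 conceptus arrays. On the FB arrays these controls lay lower, at 6.12 to 6.33, and their part in the comparisons with FB was not tested. XIST, the RNA of the inactive X chromosome, lay at 2.42 on all SCNT arrays and on IVP 2 by its brightest probe set, just under log2 4 on IVP 1, at 6.55, 4.79 and 4.88 on IVP 3, AI 1 and AI 2, and at 2.57 on AI 3. By the same probe set XIST lay at 2.42 on all FB arrays. The arrays thus differ in XIST within and between groups, and its part in the results was not tested.

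In SCNT conceptuses 5 of the 10 antioxidant genes were higher than in AI conceptuses (GPX1, TXNRD1, CAT, SOD2 and TXN), 1 was lower (GSTO1) and 4 did not pass (GPX4, SOD1, PRDX1 and PRDX2). Over all 6892 probe sets tested, 16.2% were higher and 11.4% lower. The median difference of the 10 genes was 0.37 log2 units, beside 0.08 for all probe sets. In IVP against AI conceptuses 3 genes were higher (GPX1, TXNRD1 and TXN), again GSTO1 was lower and 6 did not pass, beside 8.42% higher and 9.49% lower over all probe sets and medians of 0.21 and 0.02. Both comparisons use the same AI arrays. The 10 genes were chosen with earlier results of these data known, so their counts and medians are no test of the set. Conceptuses are mixtures of cells, and a larger share of cells that express a gene cannot be told apart from more of its RNA per cell.

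**Figure D1:**
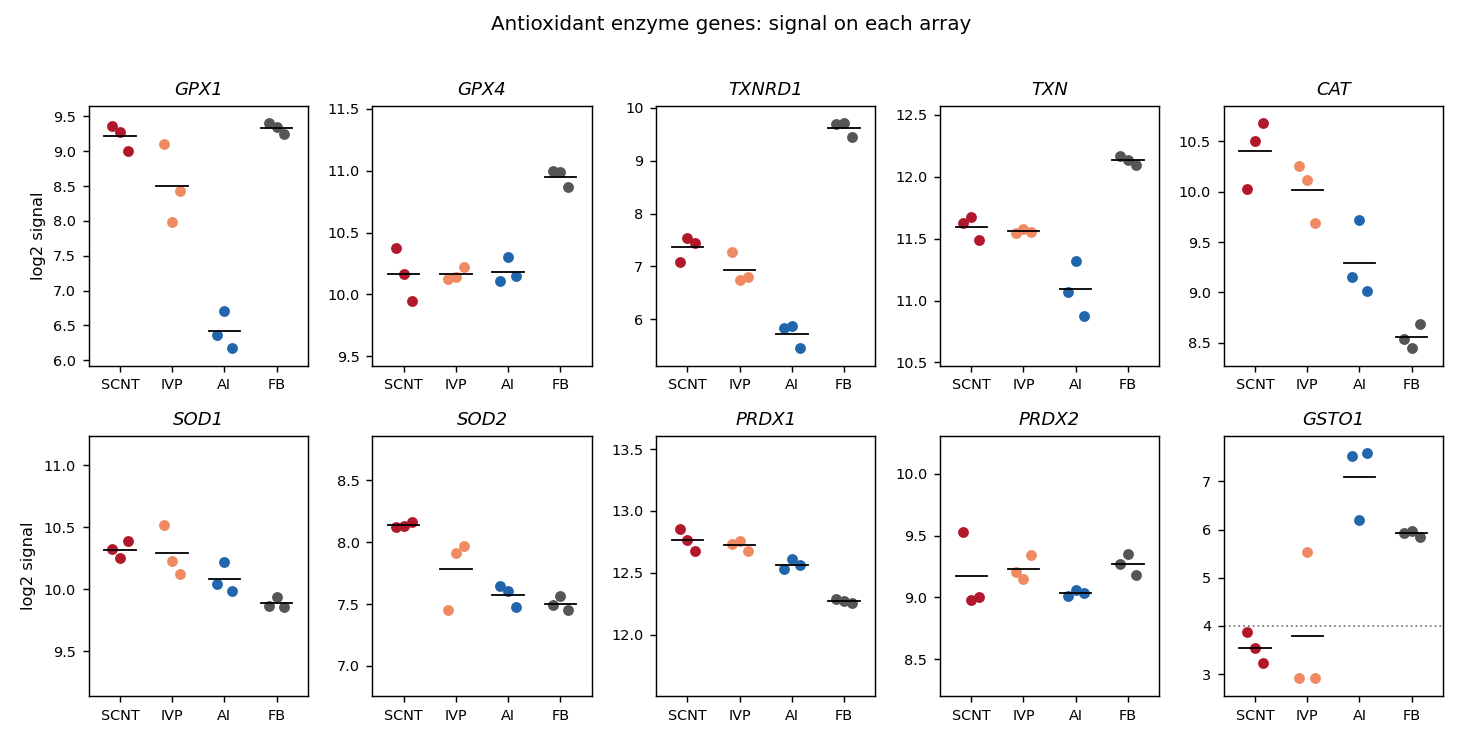
Log2 signal of the measured probe set of each antioxidant gene (vertical axis, each panel with its own range) on each of 3 arrays in SCNT, IVP and AI conceptuses and in FB fibroblasts. Points are arrays, black bars are group means and the dotted line in the GSTO1 panel is log2 4; GPX1 and TXNRD1 were lowest in AI conceptuses, and GSTO1 lay below the line on all SCNT arrays and on 2 of 3 IVP arrays.

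GPX1, a cytosolic enzyme that reduces hydrogen peroxide with glutathione, had the largest rise. Its signal was 9.36, 9.27 and 9.001 on the SCNT arrays, 9.10, 7.98 and 8.42 on the IVP arrays and 6.37, 6.71 and 6.17 on the AI arrays. Every SCNT and IVP array lay above every AI array, by more than 1 log2 unit. GPX1 was 6.94-fold higher in SCNT than in AI conceptuses (95% interval 4.70 to 10.3, adjusted p = 6.54e-05, limma), the rank 9 among 6892 probe sets by difference, and 4.24-fold higher in IVP than in AI conceptuses (2.87 to 6.26, adjusted p = 5.45e-04, limma), rank 15. Both calls held whichever array was left out. The 2 IVP arrays with bright spike-in controls had the lowest GPX1 signals of their group and AI 2 the highest of its group, and without these 3 arrays the IVP to AI ratio was 7.10 (adjusted p = 9.85e-04, limma, with 1 IVP array left, which is assumed to vary like the other groups). The part of the spike-in signal in this difference was not tested further.

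GPX4, which reduces lipid hydroperoxides inside membranes, did not pass in any comparison between conceptuses. Its signal was 10.38, 10.17 and 9.95 on the SCNT arrays, 10.13, 10.15 and 10.22 on the IVP arrays, and 10.11, 10.30 and 10.15 on the AI arrays. The 3 groups overlapped, with means of 10.16, 10.16 and 10.18. The difference of SCNT from AI was -0.02 log2 units (95% interval -0.32 to 0.28, adjusted p = 0.928, limma), and that of IVP from AI was also -0.02 (-0.32 to 0.28, adjusted p = 0.930, limma).

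In the thioredoxin system, both the reductase and its substrate were higher in SCNT and IVP than in AI conceptuses. TXNRD1, the cytosolic thioredoxin reductase, read 7.09, 7.54 and 7.44 in SCNT conceptuses, 7.27, 6.74 and 6.80 in IVP conceptuses and 5.84, 5.86 and 5.45 in AI conceptuses. No SCNT or IVP array overlapped the AI range. TXNRD1 was 3.11-fold higher in SCNT (2.33 to 4.16, adjusted p = 2.50e-04, limma) and 2.32-fold higher in IVP conceptuses (1.74 to 3.10, adjusted p = 0.00210, limma) than in AI conceptuses, and both calls held on the omission of any array.

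TXN, the small dithiol protein that passes electrons to peroxiredoxins and ribonucleotide reductase, had signals of 11.63, 11.67 and 11.49 in SCNT, 11.55, 11.58 and 11.55 in IVP and 11.07, 11.32 and 10.88 in AI conceptuses. The 3 IVP arrays lay within 0.03 log2 units of each other and the AI arrays spread over 0.44. The rise was 1.42-fold in SCNT (1.15 to 1.75, adjusted p = 0.0193, limma) and 1.38-fold in IVP conceptuses (1.12 to 1.70, adjusted p = 0.0378, limma). Leaving out any of AI 1, AI 3, SCNT 1 and SCNT 2 ended the SCNT call (adjusted p from 0.0503 to 0.0743, limma), and the IVP call without AI 1, AI 3, SCNT 2 or any IVP array (0.0568 to 0.129), while the differences were at least 0.40 and 0.36 log2 units. With no filter on low values both calls ended too (0.0602 and 0.102).

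CAT, the heme enzyme of peroxisomes that splits hydrogen peroxide without a reductant, had its highest mean in SCNT and its lowest in AI conceptuses, and passed in SCNT. It read 10.02, 10.50 and 10.68 in SCNT, 10.26, 10.12 and 9.69 in IVP and 9.15, 9.72 and 9.01 in AI conceptuses. SCNT and AI arrays did not overlap, whereas the lowest IVP array, IVP 3, lay just below AI 2. CAT was 2.15-fold higher in SCNT than in AI conceptuses (1.51 to 3.08, adjusted p = 0.00640, limma, and 0.0808 with no filter on low values). In IVP conceptuses the ratio was 1.66 (1.16 to 2.37) and did not pass (adjusted p = 0.0542, limma). It passed without AI 2, SCNT 1 or IVP 3 (adjusted p from 0.0232 to 0.0430), with a difference of 0.94 log2 units without AI 2.

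Of the superoxide dismutases, SOD2 passed in SCNT conceptuses and SOD1 in neither comparison with AI. SOD2, the manganese enzyme of mitochondria, read 8.12, 8.13 and 8.17 in SCNT, 7.45, 7.92 and 7.97 in IVP and 7.65, 7.61 and 7.48 in AI conceptuses. The SCNT arrays stood within 0.05 log2 units of each other, above all other conceptus arrays, while IVP 1 was the lowest conceptus array and the other IVP arrays lay between the SCNT and AI ranges. SOD2 was 1.48-fold higher in SCNT than in AI conceptuses (1.17 to 1.86, adjusted p = 0.0192, limma), a call that ended without AI 3, SCNT 2 or SCNT 3 (adjusted p from 0.0546 to 0.0606) or with no filter on low values (0.0830). IVP differed from AI by 0.20 log2 units (-0.13 to 0.54, adjusted p = 0.377, limma).

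SOD1, the copper and zinc enzyme, gave 10.32, 10.25 and 10.39 in SCNT, 10.52, 10.23 and 10.12 in IVP and 10.04, 10.22 and 9.98 in AI conceptuses. The SCNT arrays lay above the AI arrays by as little as 0.03, and the difference of 0.24 log2 units (-0.07 to 0.54) did not pass (adjusted p = 0.226, limma). For IVP against AI it was 0.21 (-0.10 to 0.51, adjusted p = 0.319, limma).

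The peroxiredoxins of the set, cytosolic enzymes that reduce hydrogen peroxide with thioredoxin, did not pass in any comparison between conceptuses. PRDX1 read 12.85, 12.76 and 12.68 in SCNT, 12.73, 12.76 and 12.68 in IVP and 12.53, 12.61 and 12.56 in AI conceptuses. All SCNT and IVP arrays lay above all AI arrays, but the differences were 0.20 (-0.05 to 0.45, adjusted p = 0.211, limma) and 0.16 log2 units (-0.09 to 0.40, adjusted p = 0.365, limma).

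PRDX2 read 9.53, 8.98 and 9.01 in SCNT, 9.21, 9.15 and 9.34 in IVP and 9.01, 9.06 and 9.03 in AI conceptuses. SCNT 1 alone was above the AI range in its group, and the difference of SCNT from AI was 0.14 log2 units (-0.21 to 0.48, adjusted p = 0.546, limma). That of IVP from AI was 0.20 (-0.15 to 0.54, adjusted p = 0.409, limma).

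GSTO1 went the other way. It encodes a glutathione transferase with a cysteine at the active site, which reduces dehydroascorbate and releases glutathione from proteins. Its signal was 3.87, 3.55 and 3.22 in SCNT conceptuses, 2.92, 5.53 and 2.91 in IVP conceptuses and 7.52, 6.20 and 7.58 in AI conceptuses. All SCNT arrays and 2 of the 3 IVP arrays lay below log2 4, where levels cannot be told apart well, and IVP 2 stood apart at a level close to that of AI 2, the lowest AI array. With arrays below log2 4 set to 4 in a group whose mean lay below it, GSTO1 was at least 8.57-fold lower in SCNT (adjusted p = 0.00257, limma) and at least 6.02-fold lower in IVP conceptuses (adjusted p = 0.00539, limma) than in AI conceptuses. GSTO1 passed the filter through the AI arrays and IVP 2, and with no filter on low values both calls ended (adjusted p = 0.0640 in SCNT and 0.106 in IVP, limma). Both calls held when any single array was left out.

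Some markers of other cell types, namely ITGB2, RAC2, CD48, ALAS2 and RBP4, moved in the same direction as GSTO1, and most others did not. Of the 8 leukocyte markers, 3 lay above log2 4 on every AI array (ITGB2, RAC2 and CD48), against 0 on every SCNT array and 1 on every IVP array (RAC2), and the summed log2 signal of the list was 22.0 to 25.5 in SCNT, 22.0 to 26.2 in IVP and 33.8 to 37.9 in AI conceptuses. PTPRC, the general leukocyte marker, and CD3E, CD14, CORO1A and LCP1 stayed at or below log2 4 on all conceptus arrays. Of 6 erythroid markers ALAS2 lay above log2 4 on every AI array, and the globin genes HBA, HBB, HBE1 and HBG on no conceptus array. The summed erythroid signal was 14.6 to 14.8 in SCNT, 14.7 to 14.8 in IVP and 18.2 to 19.9 in AI conceptuses. Of 7 hypoblast markers, APOA1, GATA6 and RBP4 lay above log2 4 on every conceptus array and AFP, GATA4 and TTR on none, and the summed signal was 35.6 to 36.7 in SCNT, 38.1 to 39.7 in IVP and 38.2 to 41.0 in AI conceptuses, with SCNT below the others without overlap. The IVP and AI sums of this list overlapped. RBP4, a retinol carrier, was 5.05 to 6.03 in SCNT, 6.15 to 6.67 in IVP and 6.97 to 7.32 in AI conceptuses. In the same order, the means of APOA1 were 11.6, 12.1 and 11.9, and those of GATA6 7.7, 7.7 and 7.8. Those of APOA2 were 3.40, 4.37 and 4.54, with every SCNT array below log2 4 and below every IVP and AI array. Some trophoblast markers differed too, though the summed signal of their list overlapped between groups. KRT18 and PAG11 lay lower on every AI array than on any SCNT or IVP array. Their means in SCNT, IVP and AI conceptuses were 13.101, 13.009 and 12.221, and 13.151, 13.003 and 11.94. TKDP4, with means of 11.563, 11.988 and 12.768, lay higher on every AI array. So did TKDP1 by its brighter probe set (13.496, 13.55 and 13.615). The part of these cells, trophoblast included, in the GSTO1 difference, or in that of the other antioxidant genes, was not tested.

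**Figure D2:**
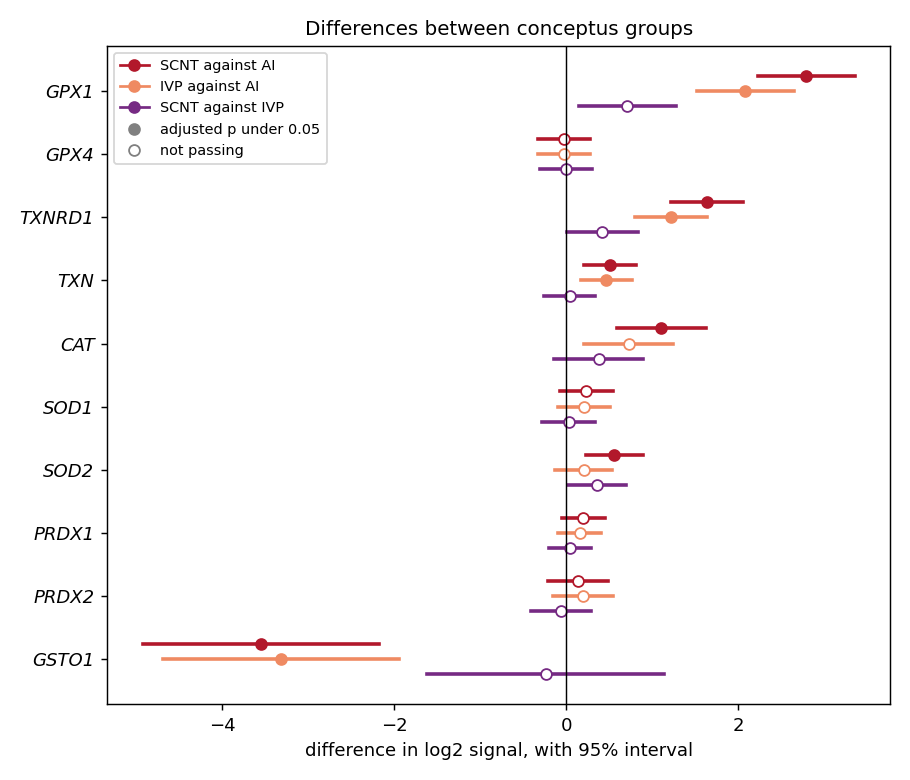
Difference in log2 signal (horizontal axis) between conceptus groups for each antioxidant gene, with its 95% interval from the fit over 9 conceptus arrays. Filled points passed an adjusted p under 0.05 and open points did not; GPX1 and TXNRD1 lie farthest to the right for SCNT and IVP against AI, GSTO1 farthest to the left, and all 10 points for SCNT against IVP are open. GSTO1 points of SCNT and IVP rest on means below log2 4, so their place on the axis is not a measured size.

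SCNT and IVP conceptuses, which both passed through culture but differ in how the embryo was made, were compared directly. None of the 10 genes passed an adjusted p under 0.05 (limma), beside 0.232% higher and 0.348% lower over all 6892 probe sets at that threshold. GPX1, SOD2 and TXNRD1 had an unadjusted p under 0.05 (limma). The share of all probe sets at that looser threshold was not computed, so nothing is read from it. GPX1 was higher in SCNT conceptuses by 0.71 log2 units (0.15 to 1.28, adjusted p = 0.286, limma), with IVP 1 inside the SCNT range. Without AI 2, IVP 2 and IVP 3 the difference was 0.11. TXNRD1 differed by 0.42 (0.01 to 0.84, adjusted p = 0.383), SOD2 by 0.36 (0.03 to 0.69, adjusted p = 0.347) and CAT by 0.38 (-0.14 to 0.90, adjusted p = 0.531). GPX4, TXN, SOD1 and PRDX1 differed by 0.00 to 0.04 log2 units, and their intervals reached at most 0.34 in either direction. For GSTO1 both group means lay below log2 4, so no difference is given.

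Against the donor fibroblasts the genes split. In FB, GPX1 read 9.40, 9.35 and 9.25, and TXNRD1 9.70, 9.71 and 9.45. The FB arrays of GPX1 overlapped those of SCNT conceptuses and lay above all IVP and AI arrays. GPX1 differed from FB by -0.12 log2 units in SCNT (-0.64 to 0.39, adjusted p = 0.642, limma over 12 arrays), while it was 1.78-fold lower than FB in IVP (1.25 to 2.55, adjusted p = 0.00628) and 7.56-fold lower in AI conceptuses (5.28 to 10.8, adjusted p = 2.36e-07). Without AI 2, IVP 2 and IVP 3 the IVP call ended (adjusted p = 0.216). TXNRD1 was lower than FB in every conceptus group, 4.78-fold in SCNT (3.67 to 6.22), 6.41-fold in IVP (4.92 to 8.34) and 14.9-fold in AI conceptuses (11.4 to 19.4), with adjusted p from 7.91e-10 to 1.42e-07. These 3 comparisons share the FB arrays. FB cells are cultured and differ from conceptuses in cell type as well as origin, and the parts of each cannot be told apart. GAPDH read higher by its 3' than by its 5' control probe sets, which grows as RNA degrades, by 0.28 to 0.45 log2 units in SCNT, 0.35 to 0.89 in IVP, 0.21 to 0.38 in AI conceptuses and 0.01 to 0.06 in FB. This gap moved with every comparison with FB. Among conceptuses it was wider on IVP 2, IVP 3 and SCNT 2 (0.51, 0.89 and 0.45) than on any AI array. Its part in the comparisons with FB or between conceptuses was not tested.

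TXN and GPX4 were lower in all conceptus groups than in FB as well. TXN, at 12.17, 12.14 and 12.09 in FB, was 1.45-fold lower in SCNT, 1.49-fold lower in IVP and 2.06-fold lower in AI conceptuses. GPX4, at 10.999, 10.99 and 10.87 in FB, was 1.73-fold, 1.73-fold and 1.70-fold lower in SCNT, IVP and AI conceptuses, with adjusted p up to 4.96e-05 (limma). GPX4 thus separated fibroblasts from conceptuses, by intervals between 1.44-fold and 2.05-fold, without a detectable difference among conceptuses.

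CAT was the reverse, with its lowest levels in FB at 8.53, 8.44 and 8.69. It was 3.60-fold higher in SCNT (2.59 to 4.996), 2.76-fold higher in IVP (1.99 to 3.84) and 1.67-fold higher in AI conceptuses (1.20 to 2.32, adjusted p = 0.00805, limma) than in FB. PRDX1, at 12.29, 12.27 and 12.26 in FB, was 1.41-fold, 1.37-fold and 1.23-fold higher in SCNT, IVP and AI conceptuses. SOD1, at 9.86, 9.94 and 9.85 in FB, was 1.35-fold higher in SCNT and 1.33-fold higher in IVP conceptuses, and 0.20 log2 units apart from FB in AI conceptuses (-0.05 to 0.45, adjusted p = 0.125, limma). SOD2, at 7.49, 7.57 and 7.45 in FB, was 1.55-fold higher in SCNT conceptuses. It did not pass in IVP (adjusted p = 0.0645, and 0.00161 without IVP 1) or in AI conceptuses (0.616).

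GSTO1 read 5.94, 5.97 and 5.85 in FB, above every SCNT and IVP array and below every AI array. It was at least 3.78-fold lower in SCNT and at least 2.66-fold lower in IVP conceptuses than in FB (adjusted p = 0.00289 and 0.00578, limma). In AI conceptuses it was 1.18 log2 units higher than in FB (-0.12 to 2.48), which did not pass (adjusted p = 0.0887). It passed without AI 2, at 1.63 log2 units (adjusted p = 0.0333, limma), and without IVP 2, at an unchanged 1.18 (adjusted p = 0.00472). It also passed with AI and FB as the sole groups in the fit (adjusted p = 0.0118). PRDX2 read 9.27, 9.35 and 9.18 in FB and passed against no conceptus group (adjusted p from 0.136 to 0.827), but passed without SCNT 1 for SCNT (adjusted p = 0.0252) and for AI (0.0314).

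In all, 4 genes were higher and 4 lower than FB in SCNT, 3 and 5 in IVP, and 2 and 4 in AI conceptuses. Over all 8164 probe sets of these comparisons, 45% were higher and 34.8% lower in SCNT, 43% and 35.7% in IVP, and 41.6% and 35.6% in AI conceptuses, beside which counts of this size say nothing particular of the 10 genes.

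**Figure D3:**
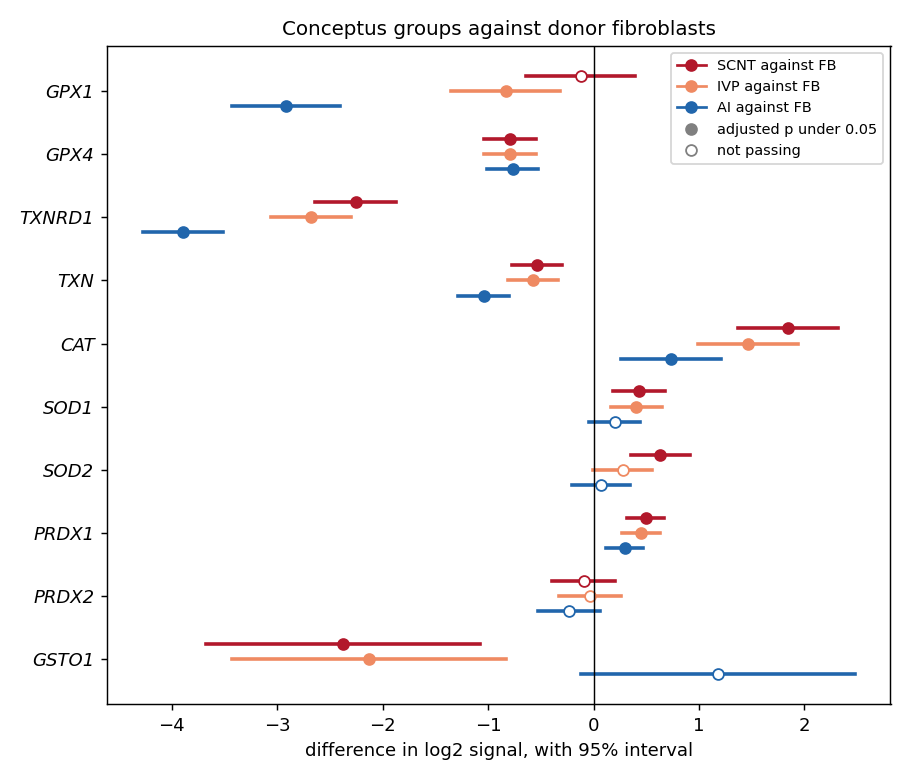
Difference in log2 signal (horizontal axis) of SCNT, IVP and AI conceptuses from FB fibroblasts for each antioxidant gene, with its 95% interval from the fit over 12 arrays. Filled points passed an adjusted p under 0.05; GPX1 of SCNT conceptuses lies at -0.12 with an open point, while that of AI conceptuses lies at -2.92.

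The order of the 4 groups was therefore not the same for all genes. For GPX1 it was FB, SCNT, IVP and AI from high to low, where FB and SCNT, and SCNT and IVP, did not pass. For TXNRD1 and TXN the order was the same, and SCNT and IVP were the neighbours that did not pass. For CAT it was SCNT, IVP, AI and FB, where SCNT and IVP, and IVP and AI, did not pass. SOD1, SOD2 and PRDX1 also ran SCNT, IVP, AI and FB by their means, and among neighbours only AI and FB for PRDX1 passed. GSTO1 was highest in AI, then FB, which did not pass against each other, with IVP and SCNT below both, where means under log2 4 have no order. GPX4 was highest in FB, with AI, SCNT and IVP close together below it, and PRDX2 ran FB, IVP, SCNT and AI by its means with no pair that passed.

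Around the 10 enzymes, 10 lists of related genes were examined, 140 names of which 66 had a tested probe set in the conceptus comparisons, the brightest 1 being used for each gene. In SCNT against AI 16 of these 66 were higher (24.2%), 7 lower (10.6%) and 43 did not pass, beside 16.2% higher and 11.4% lower over all probe sets. In IVP against AI 10 were higher (15.2%), 5 lower (7.58%) and 51 did not pass, beside 8.42% and 9.49%. In SCNT against IVP 1 was higher and 65 did not pass, beside 0.232% and 0.348%. The counts of single lists, of 1 to 13 genes each, stand beside these same shares, and nothing is called particular to a list. The lists too were chosen with earlier results of these data known, so their shares are no test. With no filter on low values, 13 of the 22 named calls of SCNT against AI ended, as did 13 of the 15 of IVP against AI and the 1 of SCNT against IVP. Those of PRDX5, GLRX2, GSR, GCLM, GSTK1, SELENOP, MTHFD2, TXNDC9 and PEX7 held in SCNT against AI, and those of PRDX5 and GLRX2 in IVP against AI.

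Of the other peroxiredoxins and glutathione peroxidases, 5 were tested, 2 were higher and 1 lower in SCNT than in AI conceptuses (median 0.21), and the same counts held in IVP (median 0.38). PRDX5, a peroxiredoxin of mitochondria, peroxisomes and cytosol, read 11.34, 11.50 and 11.49 in SCNT, 11.59, 11.12 and 11.11 in IVP and 10.58, 10.24 and 10.38 in AI conceptuses. It was 2.06-fold higher in SCNT (1.61 to 2.64, adjusted p = 0.00132, limma) and 1.84-fold higher in IVP conceptuses (1.44 to 2.35, adjusted p = 0.00468) with no overlap. PRDX6, which also reduces phospholipid hydroperoxides, was 1.64-fold higher in SCNT conceptuses (adjusted p = 0.0134, and 0.0510 without SCNT 2), and its other tested probe set did not pass (adjusted p = 0.0805). GPX2, the glutathione peroxidase known from gut epithelium, was 2.38-fold higher in IVP conceptuses (1.51 to 3.75, adjusted p = 0.0164). PRDX3, the peroxiredoxin of the mitochondrial matrix, is uncertain: its brighter probe set was 0.48 log2 units lower in SCNT (adjusted p = 0.0362) and 0.54 lower in IVP conceptuses (adjusted p = 0.0300), but the other was 0.49 higher in SCNT (adjusted p = 0.0604) and 0.16 higher in IVP conceptuses (adjusted p = 0.553). The SCNT call of the brighter one also ended without AI 2, AI 3 or any SCNT array (adjusted p up to 0.131), and the IVP call without AI 2, AI 3 or any IVP array (up to 0.101).

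Of 9 other genes of the thioredoxin and glutaredoxin system, 1 was higher and 1 lower in SCNT than in AI conceptuses (median 0.13), and 2 were higher and 1 lower in IVP (median -0.04). GLRX2, a mitochondrial glutaredoxin that uses glutathione, was 1.70-fold higher in SCNT (1.39 to 2.07, adjusted p = 0.00221, limma) and 1.57-fold higher in IVP conceptuses (1.29 to 1.91, adjusted p = 0.00712). TXNDC12, a thioredoxin-like protein of the endoplasmic reticulum, was 1.66-fold lower in SCNT and 1.71-fold lower in IVP conceptuses (adjusted p = 0.0104 and 0.0120). GLRX5, which takes part in iron-sulfur cluster assembly, was 1.37-fold higher in IVP conceptuses (adjusted p = 0.0459), a call that ended on the omission of any conceptus array but IVP 1 (up to 0.151). The mitochondrial counterpart of TXNRD1, TXNRD2, lay below log2 4 on all 12 arrays. Of the superoxide dismutase relatives CCS, the copper chaperone of SOD1, was the 1 gene tested and did not pass in the conceptus comparisons, and in SCNT conceptuses it lay at least 1.44-fold below FB. GLRX5 was 2.28-fold, 3.59-fold and 2.61-fold higher in SCNT, IVP and AI conceptuses than in FB, and NXN, nucleoredoxin, fell by 1.32, 1.51 and 1.32 on the log2 scale in the same groups.

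Of 5 genes of glutathione synthesis and recycling, 2 were higher and 1 lower in SCNT than in AI conceptuses (median 0.50), and 0 in IVP (median 0.39). GSR, which recycles oxidized glutathione with NADPH, read 6.78, 6.94 and 7.37 in SCNT, 6.64, 6.72 and 6.69 in IVP and 6.13, 6.41 and 6.20 in AI conceptuses, and was 1.72-fold higher in SCNT (1.34 to 2.20, adjusted p = 0.00570, limma). GCLM, the modifier subunit of the first enzyme of glutathione synthesis, was 1.56-fold higher in SCNT conceptuses (1.28 to 1.91, adjusted p = 0.00557). GGT1, which cleaves extracellular glutathione, fell at least 1.75-fold in SCNT conceptuses (adjusted p = 0.0246), a call that ended without AI 1, AI 3 or SCNT 3 (up to 0.0889). Against FB, GSR was 2.09-fold higher in SCNT and 1.65-fold higher in IVP conceptuses, GGT1 was at least 1.19-fold higher in IVP and at least 1.79-fold higher in AI conceptuses, and GLO1 was 1.90-fold lower in AI conceptuses. GLO1 had means of 7.37, 7.29, 6.87 and 7.79 in SCNT, IVP, AI and FB.

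Of 5 other glutathione transferases and relatives, 1 was higher and 1 lower in SCNT (median 0.34), and 1 was higher in IVP conceptuses (median 0.06). PTGES, the prostaglandin E synthase of the membrane-bound family, was at least 2.89-fold higher in SCNT and at least 2.77-fold higher in IVP conceptuses than in AI conceptuses (adjusted p = 0.00514 and 0.00903, limma). GSTK1, a transferase of mitochondria and peroxisomes, was 1.60-fold lower in SCNT conceptuses (1.29 to 1.97, adjusted p = 0.00553). Against FB, MGST1 was 42.2-fold higher in SCNT, 22.4-fold higher in IVP and 27.3-fold higher in AI conceptuses, whereas MGST3 was at least 15.5-fold lower in each. Both encode membrane-bound transferases that also reduce lipid peroxides, and FB and conceptus arrays did not overlap for either. MGST3 passed the filter through the FB arrays alone.

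Among 9 other selenoproteins and genes of selenocysteine insertion, 3 were higher and 2 lower in SCNT (median 0.24), and 2 were higher and 1 lower in IVP than in AI conceptuses (median -0.01). SEPHS2, which makes the selenium donor for selenocysteine and is itself a selenoprotein, was 2.01-fold lower in SCNT (1.49 to 2.72, adjusted p = 0.00461, limma) and 1.79-fold lower in IVP conceptuses (1.32 to 2.42, adjusted p = 0.0158). SELENOP, the secreted selenium carrier, was 1.53-fold lower in SCNT conceptuses (1.24 to 1.89, adjusted p = 0.00837). SELENOS and SELENOK, membrane selenoproteins of the endoplasmic reticulum, were 1.60-fold and 1.56-fold higher in SCNT and 1.55-fold and 1.67-fold higher in IVP conceptuses. The IVP call of SELENOS ended without IVP 3 (adjusted p = 0.0583, limma). The SELENOK calls ended without AI 1, AI 3, SCNT 2 or SCNT 3 in SCNT (up to 0.135) and without AI 1, AI 3 or IVP 3 in IVP (up to 0.100). Selenoprotein genes therefore lay on both sides: GPX1 and TXNRD1 were higher in SCNT than in AI conceptuses, SEPHS2 and SELENOP lower, and GPX4 did not pass.

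**Figure D4:**
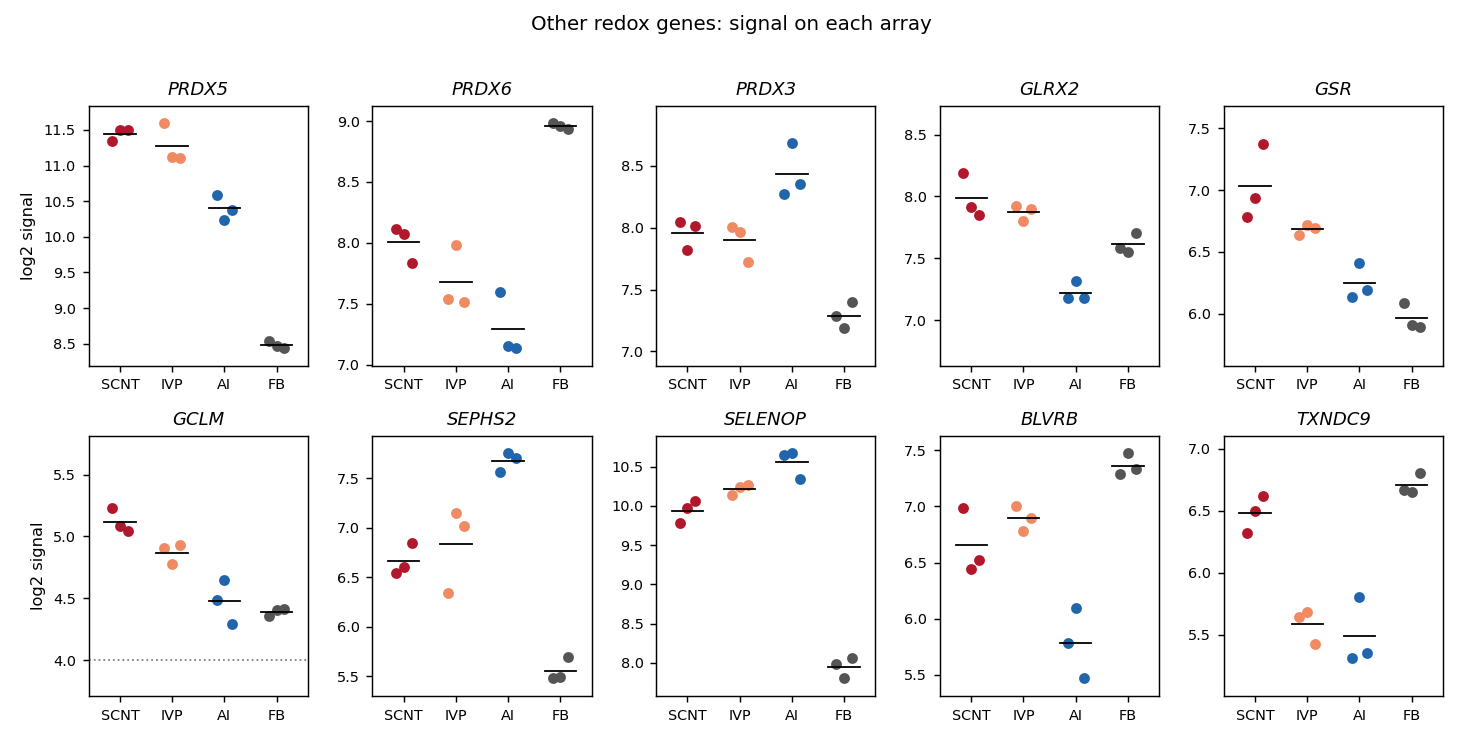
Log2 signal (vertical axis, each panel with its own range) of 10 related redox genes on each of 3 arrays in SCNT, IVP and AI conceptuses and in FB fibroblasts, all of them called in SCNT against AI conceptuses. Points are arrays, black bars are group means and the dotted line in the GCLM panel is log2 4; PRDX5, GLRX2, GSR, GCLM and BLVRB lie higher in SCNT than in AI conceptuses without overlap, and SEPHS2 and SELENOP lower.

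Of 13 genes of NRF2 and its targets other than those above, 1 was higher in SCNT (median -0.19), and 1 was higher and 1 lower in IVP than in AI conceptuses (median 0.15). BLVRB, a flavin and biliverdin reductase, was 1.83-fold higher in SCNT (1.37 to 2.45, adjusted p = 0.00755, limma) and 2.16-fold higher in IVP conceptuses (1.62 to 2.89, adjusted p = 0.00335). AKR1B1, aldose reductase, was 1.38-fold lower in IVP conceptuses (adjusted p = 0.0472), a call that ended on the omission of any single conceptus array (adjusted p from 0.0505 to 0.157). Against FB 3 genes were higher and 8 lower in SCNT, 3 and 7 in IVP and 3 and 7 in AI conceptuses, beside 45% and 34.8%, 43% and 35.7%, and 41.6% and 35.6% over all probe sets. AKR1B1 was 54.7-fold, 48.8-fold and 67.2-fold higher in SCNT, IVP and AI conceptuses than in FB. SQSTM1, the autophagy receptor p62, was 11.7-fold lower in SCNT and 9.84-fold lower in AI conceptuses, and NQO1, a quinone reductase, was 8.70-fold lower in IVP conceptuses than in FB. Neither was particular to the groups named. The means in SCNT, IVP, AI and FB were 7.08, 7.52, 7.33 and 10.6 for SQSTM1, and 4.82, 4.84, 5.06 and 7.96 for NQO1.

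Of 10 genes of NADPH supply, 3 were higher in SCNT (median 0.18) and 2 in IVP than in AI conceptuses (median 0.06). MTHFD2 and MTHFD1, folate enzymes of mitochondria and cytosol, were at least 1.62-fold and 1.76-fold higher in SCNT conceptuses (adjusted p = 0.00198 and 0.00672, limma), and for MTHFD2 the IVP ratio was at least 1.31 (0.0111). Among conceptuses MTHFD2 passed the filter through the SCNT and IVP arrays alone, and with no filter its IVP call ended (adjusted p = 0.107, limma). ME1, the cytosolic malic enzyme, was 1.61-fold higher in SCNT and 1.67-fold higher in IVP conceptuses, of which the SCNT call was lost when AI 1, AI 3, SCNT 1 or SCNT 2 was left out (up to 0.107) and the IVP call without AI 1, AI 3, IVP 2 or IVP 3 (up to 0.107). ME1 was 4.43-fold, 4.26-fold and 7.13-fold lower in SCNT, IVP and AI conceptuses than in FB, and NNT, which makes NADPH in mitochondria, at least 2.251-fold lower in each. NNT passed the filter through the FB arrays alone.

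Of 5 peroxisome assembly genes, which bear on the organelle that holds catalase, 2 were higher in SCNT (median 0.39) and 0 in IVP than in AI conceptuses (median 0.32). PEX7, an import receptor, was 0.59 log2 units higher in SCNT conceptuses (SCNT to AI ratio 1.22 to 1.84, adjusted p = 0.00904, limma). PEX11A, a peroxisome division gene, had means below log2 4 in both groups, so no fold is given. It passed the filter through SCNT 2, SCNT 3 and IVP 1 alone, and with no filter its call ended (adjusted p = 0.2555, limma). The call also ended without any AI array, SCNT 2, SCNT 3 or IVP 2 (adjusted p up to 0.129). Against FB 4 of the 5 were higher and 1 lower in SCNT and in IVP conceptuses, and 2 higher and 1 lower in AI conceptuses, where most of all probe sets were called too (45% higher and 34.8% lower in SCNT, 43% and 35.7% in IVP, 41.6% and 35.6% in AI). PEX5, the main import receptor of peroxisomes, was 3.02-fold, 2.97-fold and 2.30-fold higher in SCNT, IVP and AI conceptuses. PEX11A was also called higher in SCNT and IVP conceptuses, without a fold since its means lay below log2 4. In this fit too it passed the filter through SCNT 2, SCNT 3 and IVP 1 alone. The IVP call ended without FB 2 (adjusted p = 0.0506, limma) and with no filter (0.0646). PEX19 was 1.59-fold higher in AI conceptuses than in FB. It was not particular to AI, since it read 5.94 to 6.23 in SCNT and 5.44 to 5.94 in IVP conceptuses, against 5.07 to 5.23 in FB.

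Of 4 tested genes of the list of metallothioneins and sulfoxide reductases, 1 was higher and 1 lower in SCNT (median -0.22), and 1 was lower in IVP than in AI conceptuses (median -0.13). TXNDC9, a thioredoxin-domain protein that acts on chaperonins, was the sole gene of the 10 lists to pass between SCNT and IVP. It read 6.32, 6.50 and 6.62 in SCNT, 5.64, 5.68 and 5.42 in IVP and 5.31, 5.80 and 5.35 in AI conceptuses, with no overlap between SCNT and the others. It was 1.99-fold higher in SCNT than in AI conceptuses (1.56 to 2.55, adjusted p = 0.00181, limma) and 1.87-fold higher in SCNT than in IVP conceptuses (1.46 to 2.39, adjusted p = 0.0421). The SCNT to IVP call ended on the omission of any conceptus array but AI 2 and AI 3 (adjusted p from 0.0640 to 0.156). OXR1, an oxidation resistance gene, was 1.43-fold lower in SCNT and 1.53-fold lower in IVP conceptuses (adjusted p = 0.0309 and 0.0216), calls that ended without AI 2, SCNT 1 or SCNT 2 (up to 0.107) and without AI 2 or IVP 3 (up to 0.0767). The metallothionein gene MT2A was at least 5.86-fold, 5.86-fold and 5.72-fold lower in SCNT, IVP and AI conceptuses than in FB, and passed the filter through the FB arrays and AI 2. OXR1 was 2.04-fold lower than FB in SCNT and TXNDC9 2.18-fold lower than FB in IVP conceptuses, and MSRA, a methionine sulfoxide reductase, was 2.60-fold higher in AI conceptuses. The means in SCNT, IVP, AI and FB were 5.05, 4.95, 5.57 and 6.07 for OXR1. For TXNDC9 they were 6.48, 5.58, 5.49 and 6.71, and for MSRA 5.53, 5.72, 6.04 and 4.66.

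Genes with the most similar pattern over the 9 conceptus arrays were looked up for GPX1, TXNRD1, CAT and GSTO1, among named probe sets tested in that fit, by Pearson's r. These values describe arrays that fall into groups, and carry no test, and for GSTO1 they include signals below log2 4. For GPX1 they were TOMM7, a subunit of the mitochondrial import pore (r = 0.991), the acyl-CoA synthetase gene ACSL3 (0.987), PTS of tetrahydrobiopterin synthesis (0.982) and CDC26 of the anaphase-promoting complex (0.979). For TXNRD1 they were the sodium pump subunit gene ATP1B3 (0.991), ACSL3 (0.988), the phosphatase gene PTPN13 (0.987) and the sodium-proton exchanger gene SLC9A3 (0.986). ACSL3 stood on both lists and ranged from 6.35 to 8.93 over the 9 arrays. For CAT they were PLSCR2 (0.995), the ion channel gene MCOLN2 (0.986), ABCD3, a transporter of the peroxisome membrane (0.980), and the oxysterol-binding protein gene OSBPL11 (0.971). For GSTO1 they were FAM104A (0.992), ZFP36L2, which encodes an RNA-binding protein (0.980), LOC788425 (0.976) and the protease gene PRSS12 (0.975), of which PRSS12 spanned 3.54 to 5.76 and FAM104A 5.91 to 6.71.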

How the data were processed

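RNA was amplified and biotin-labelled for Affymetrix bovine arrays, per the labels' protocols. For 24128 probe sets on 12 arrays the authors deposited log2 signals; GCRMA and limma are the tools listed, per the submitters' processing notes. Neither versions nor a joint normalization of the arrays is stated. GCRMA lowers dim signals, so values near the lower limit carry little information. Of the table, 112 control probe sets stayed out of the tests, and 0 sample columns were unused.

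Gene names came from the array annotation, with 1 symbol for 13292 probe sets and several for 86; no sequence or coordinate was used. The filter (log2 4 exceeded on 3 or more arrays) left 6892 probe sets for the 9 conceptus arrays and 8164 for all 12. Linear models had 1 coefficient per group (limma 3.58.1, R 4.3.3), with 6 and 8 residual degrees of freedom, two-sided moderated tests and Benjamini-Hochberg adjustment over all probe sets of a comparison. Intervals are 95%. The median standard error of a difference was 0.16 and 0.14 log2 units. For a group mean below log2 4, arrays below 4 were raised to 4 and the fold is written as a lower bound. Named were all member probe sets, up to 4 called genes of each list per conceptus comparison and up to 2 against FB by size of difference, and the 4 genes most alike to GPX1, TXNRD1, CAT and GSTO1; TXNRD2 and the genes given as values in the closing observations were named after their values were seen. The members and lists were chosen with earlier results of these data known. The procedure was tested on simulated data. Alternatives were other filters, normalizations, variance models, arrays in the fit and floors, blocking on replicate number, and leaving out each array; leaving out the 3 arrays with bright spike-in controls together was chosen after seeing the data. The precision is limited by 3 arrays per group.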

Additional observations from a re-analysis of the deposited data

How the results depend on the processing

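Over 157 values (60 differences of the 10 genes, 93 of list genes in the comparisons where they were named, and 4 lower bounds of GSTO1) and 3068 refits, 2881 kept their direction and side of the threshold, 30 turned sign without a call on either side, 140 lost the call, 14 gained it, 0 reversed a call and 3 lower bounds of GSTO1 moved by more than the spread of its arrays. With no filter on low values, 24016 probe sets were tested, many of them at the lower limit, and the counts of probe sets called were 984 in place of 1902 (SCNT against AI), 484 in place of 1234 (IVP against AI) and 7 in place of 40 (SCNT against IVP). Of the antioxidant probe sets 2 were then called in each of the first 2 comparisons (in place of 6 and 4), namely GPX1 and TXNRD1, while CAT, SOD2, TXN and GSTO1 had adjusted p = 0.0808, 0.0830, 0.0602 and 0.0640 in SCNT against AI, and TXN and GSTO1 0.102 and 0.106 in IVP against AI. Without the filter 28 named calls of list genes ended as well. Omission of single arrays gave 1190 to 1944, 794 to 1234 and 9 to 66 probe sets called in the 3 conceptus comparisons, the lowest without SCNT 2, AI 3 and SCNT 2, and 4 to 6, 3 to 5 and 0 to 0 antioxidant probe sets. Without AI 2, IVP 2 and IVP 3, IVP against AI had 580 calls and SCNT against IVP 5. With all 12 arrays in the fit SCNT against IVP had 136 calls. With the replicate number as a block it had 23 calls, SCNT against AI 1733 and IVP against AI 1072, and the counts of antioxidant calls stayed at 6, 4 and 0 (SCNT and IVP against AI, SCNT against IVP). Arrays with the same number share only a number: deviations from group means correlated from -0.15 to 0.21 over 18 same-numbered pairs, and 4 of 12 arrays correlated best with their own number. With floors at log2 3 and 5, GSTO1 was at least 11.7-fold and 4.28-fold lower in SCNT than in AI conceptuses, and at least 9.94-fold and 3.79-fold lower in IVP. The mean of all tested probe sets of a gene was not run as an alternative, since each of the 10 genes had 1. The promoter motif was not searched, since no sequence was used here. The 3 arrays per group limit all values, and for GSTO1 so does the lower limit of the signal.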

Other observations

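SCNT 1 differed from the other SCNT arrays in several redox genes, which were noticed after the data were seen and not tested. HMOX1, the stress-induced heme oxygenase, read 5.90, 3.69 and 3.86 on the SCNT arrays, 6.64, 6.14 and 5.93 on the IVP arrays and 5.62, 5.79 and 4.80 on the AI arrays, so that SCNT 1 lay in the range of the other groups and SCNT 2 and SCNT 3 below log2 4. NQO1 read 5.42 on SCNT 1 and 4.45 and 4.59 on SCNT 2 and SCNT 3. NFE2L2, the gene of NRF2, read 7.02 on SCNT 1 and 8.03 and 8.18 on the other SCNT arrays, with 7.65 to 8.05 over the IVP and AI arrays by its brighter probe set. SCNT 1 also held the highest SCNT value of PRDX2 and the lowest of TXNRD1 and CAT. Its leukocyte markers summed to 25.5, against 22.3 and 22.0 on SCNT 2 and SCNT 3, with RAC2 at 5.82, against 4.14 and 3.68, and ITGB2 at 5.15, against 3.56 and 3.70, and their part in these values was not tested.

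SRXN1, which repairs overoxidized peroxiredoxins, and GPX7, a peroxidase of the endoplasmic reticulum, lay below log2 4 on every conceptus array. SRXN1 read 7.42, 7.64 and 7.35 in FB and stayed between 2.46 and 3.54 on all conceptus arrays, and was at least 11.1-fold lower in each conceptus group than in FB. GPX7 was at least 8.15-fold lower in each. The selenoprotein gene SELENOM was at least 4.40-fold lower in each, while SELENOP was 3.97-fold higher in SCNT, 4.80-fold higher in IVP and 6.07-fold higher in AI conceptuses than in FB. SRXN1, GPX7 and SELENOM passed the filter through the FB arrays alone.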
